A study of Mus musculus with 80 samples.

Results

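The nuclear genes of oxidative phosphorylation were followed in the RNA of mouse embryonic stem cells that differ in Sall4 and Sall1, genes for zinc finger DNA-binding proteins. Members were all symbols that begin with Ndufa, Ndufb, Ndufc, Ndufs, Ndufv, Sdha, Sdhb, Sdhc, Sdhd, Uqcr, Cox4i, Cox5, Cox6, Cox7, Cox8 or Atp5, leaving out Ndufaf names and pseudogenes marked -ps. The rule used names and no measured value, and found 88 of the 35777 symbols listed in any of the 12 RNA tables. Complex I held 38 members, complex II 6, complex III 8, complex IV 18 and complex V 18. 4 of the 88 are assembly or associated factors (Sdhaf1, Sdhaf2, Atp5s and Atp5sl) and the others are named as subunits or their isoforms. Among those others, newer RefSeq lists call Atp5l2 a pseudogene. 81 members were listed in all 12 tables, and 84 reached a value of 5 in at least 1 library. Atp5o stood only within an entry merged with Donson in the het and KO tables of replicate 1, and Cox4i1, Ndufb2 and Ndufb8 had no entry of their own there. Ndufa4 is kept under complex I by its name, although its protein is now assigned to complex IV.

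The 12 RNA libraries come from a series of 80 samples, whose other 68 samples measured chromatin or modified DNA and are not used here. The series asked how SALL4A and TET proteins act on the oxidation of 5-methylcytosine. All lines grew on gelatin with leukaemia inhibitory factor and without feeder cells, as far as the labels describe culture. The 2 libraries labelled Sall4 het (Sall4flox/-, carrying 1 floxed and 1 null allele) are the controls of the 2 labelled Sall4 KO (Sall4 delta/-), and 2 more are Sall4 KO cells transfected with mutant Sall4A, labelled here KO plus mutant. Replicate 1 of these groups is labelled C57BL/6J, and replicate 2 is labelled 129P2/OlaHsd, line E14.1, where the mutant is named as a Flag-SALL4A-MUT transgene. Single libraries, all labelled C57BL/6J, are Sall4 KO cells transfected with wild-type SALL4A (KO plus wild type), Sall1-/-/Sall4-/- cells (DKO), the wild-type cells that serve as their control, Sall1flox/- cells (Sall1 het) and Sall1 delta/- cells (Sall1 KO). The remaining library is wild-type TT2, an ES line from an F1 cross labelled (C57BL/6NCrlj x CBA/JNCrlj)F1. Both replicates of a group carry the same biological sample record and differ in strain label. P-values therefore measure the spread between libraries that remains after a term for replicate number. This spread is pooled over het, KO and KO plus mutant. It takes in the table format of KO plus mutant replicate 1, which differs from that of het 1 and KO 1.

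Oxidative phosphorylation moves electrons from NADH through complex I, or from succinate through complex II, to ubiquinone, then through complex III and cytochrome c to complex IV, which reduces oxygen. Complexes I, III and IV pump protons out of the mitochondrial matrix, and complex V, the ATP synthase, uses their return to make ATP. Most subunits are coded in the nucleus and a few in mitochondrial DNA. Several small subunits of complex IV exist as pairs of isoforms, one found widely and the other known from heart, skeletal muscle, lung or testis. Mouse ES cells in leukaemia inhibitory factor are known to use both glycolysis and respiration.

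Many genes for respiratory subunits are known as targets of NRF1, of the ETS factor GABPA and of YY1. The 250 bases before the RefSeq transcript start (build GRCm38.p6) were searched on both strands for an NRF1 core GCGCATGC, an ETS core CCGGAAG and a YY1 core AANATGGCG. 69 of the 88 member symbols matched an entry, with 74 promoters between them. The NRF1 core was in 8 of these 74 (10.8%) and in 2.26% of all 32851 promoters. For the ETS core the counts were 13 (17.6%) against 6.91% of all promoters, and for the YY1 core 4 (5.41%) against 1.12%. These are matches of letters in a window of one length, and the GC content of that window was also higher for the members, with a median of 56.2% against 52.4%. The 6 promoters shown are those of Cox7a1, Cox6b2, Atp5g1 and Uqcr10, whose differences are described further on, and of the isoform partners Cox6b1 and Atp5g2. Capitals mark a motif match; in Atp5g2 the capitals are 2 overlapping NRF1 matches, one on each strand. Cox7a1, Cox6b2, Atp5g1 and Uqcr10 hold no match in this window. Of their isoform partners, Cox6b1 and Atp5g2 hold a match, and Cox7a2 and Atp5g3 hold none.
Cox7a1, chr7:30183921-30184170, plus strand: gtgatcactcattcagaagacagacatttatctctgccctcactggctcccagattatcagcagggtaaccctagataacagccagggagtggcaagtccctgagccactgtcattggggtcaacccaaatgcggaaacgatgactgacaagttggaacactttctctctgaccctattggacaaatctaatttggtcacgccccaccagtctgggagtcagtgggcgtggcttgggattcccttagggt
Cox6b1, chr7:30626115-30626364, minus strand: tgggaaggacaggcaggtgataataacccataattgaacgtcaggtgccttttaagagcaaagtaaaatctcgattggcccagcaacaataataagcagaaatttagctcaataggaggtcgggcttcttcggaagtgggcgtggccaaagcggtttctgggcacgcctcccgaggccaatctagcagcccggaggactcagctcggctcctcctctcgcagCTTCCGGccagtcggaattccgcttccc
Cox6b2, chr7:4753095-4753344, minus strand: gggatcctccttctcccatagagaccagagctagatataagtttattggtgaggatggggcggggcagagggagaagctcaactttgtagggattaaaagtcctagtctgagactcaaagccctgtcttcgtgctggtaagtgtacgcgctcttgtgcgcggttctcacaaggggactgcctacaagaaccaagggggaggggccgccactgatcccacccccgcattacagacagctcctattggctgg
Atp5g1, chr11:96075632-96075881, minus strand: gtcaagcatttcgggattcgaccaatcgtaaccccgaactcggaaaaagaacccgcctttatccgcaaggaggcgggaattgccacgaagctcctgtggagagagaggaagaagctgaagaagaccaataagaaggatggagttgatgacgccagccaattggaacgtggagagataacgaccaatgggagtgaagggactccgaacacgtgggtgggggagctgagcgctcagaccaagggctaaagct
Atp5g2, chr15:102671048-102671297, minus strand: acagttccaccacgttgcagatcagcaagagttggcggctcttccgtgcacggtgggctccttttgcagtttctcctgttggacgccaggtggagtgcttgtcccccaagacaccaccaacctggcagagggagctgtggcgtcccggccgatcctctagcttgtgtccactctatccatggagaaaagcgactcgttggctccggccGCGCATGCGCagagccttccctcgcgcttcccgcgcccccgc
Uqcr10, chr11:4704345-4704594, minus strand: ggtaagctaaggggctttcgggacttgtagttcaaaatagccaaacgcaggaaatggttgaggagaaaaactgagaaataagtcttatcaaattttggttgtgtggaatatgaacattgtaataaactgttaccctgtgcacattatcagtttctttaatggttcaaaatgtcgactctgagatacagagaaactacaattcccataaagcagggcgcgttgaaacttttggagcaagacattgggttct
GC content in this window was 38.8% for Uqcr10, the lowest of the 6, and 62.8% for Atp5g2, the highest. The other 4 lay between 51.2% for Cox7a1 and 54.8% for Cox6b2.

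The libraries were first read for the targeted genes and for other cells, with values in the deposited units (FPKM or RPKM, fragments or reads scaled to transcript length and to library size). Sall4 went against its labels. Replicates 1 and 2 labelled KO had 358 and 218 where the matching het libraries had 196 and 64.2, and the library labelled DKO had 109 where its control had 17.6. The labels do not name the exons removed, and a value summed over the whole gene does not check the deletion, so every direction that follows is between libraries as labelled. Sall1 was 13.9 in the DKO control and 2.27 in the library labelled DKO, and 21.8 and 13.3 in those labelled Sall1 het and KO. Of 8 stem cell markers, 6 to 8 reached 5 in each library. They did not move alike between the libraries labelled KO or DKO and their controls. Nanog was lower, at 138 and 88.9 in het 1 and KO 1 and 397 and 208 in het 2 and KO 2. In the DKO pair it was 425 and 193. Pou5f1 was higher in both Sall4 pairs, at 488 and 641 and at 706 and 863, and was 766 and 755 in the DKO pair. Summed over the markers listed, the values were 2882 and 3017, 4184 and 4691, and 6547 and 5705 in the same order of pairs. Primitive endoderm markers reached 5 in no library, but their sum was higher in KO 1 (4.88, het 1 2.42), KO 2 (3.47, het 2 0.636) and DKO (3.96, control 1.75). Trophoblast markers, of which at most 1 of 5 reached 5, also had higher sums there. They were 11.9 in KO 1 (het 1 3.50), 6.49 in KO 2 (het 2 5.38) and 10.5 in DKO (control 7.86). Within that list Elf5 was lower in both Sall4 KO libraries, at 0.294 (het 1 0.838) and 0.502 (het 2 2.15). Neural sums were lower, at 4.75 in KO 1 (het 1 5.88), 59.0 in KO 2 (het 2 65.2) and 28.5 in DKO (control 43.6). Mesoderm markers reached 5 in no library. Their sums were 1.62 in KO 1 (het 1 0.939), 0.608 in KO 2 (het 2 0.954) and 0.629 in DKO (control 0.716). The part of these differences in the members' values was not tested. Muscle markers (Myh6, Myh7, Actc1, Ckm) reached 5 in none, with sums of 0.522 to 4.11. Of 5 male germ cell markers 0 to 2 reached 5, and the sperm genes Prm1 and Tnp1 stayed below 1. Fibroblast markers summed to 212 in the DKO control and 223 in the library labelled DKO, 73.3 and 69.6 in the Sall1 pair, and 2.38 to 16.2 elsewhere.

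Members were among the most abundant RNAs of the ES cells. The median member lay between the 92.1 and the 95.9 percentile of symbols at 1 or more in its library. The highest by median over the 12 libraries was Atp5b, the catalytic beta subunit of complex V, at 1318 with a range of 348 to 3206. It was the highest member in only 2 of the 12 libraries, since the order differed between tables: Cox7b led in 5, Atp5k and Cox7c in 2 each, and Uqcr10 in TT2. In complex IV, Cox7c (median 1093) and Cox4i1 (982 over the 10 tables that list it) were highest. In complex III Uqcr10 (616) and Uqcrb (562) led, in complex I Ndufa4 (650) and Ndufa3 (530), and in complex II the membrane anchors Sdhd (119) and Sdhc (103). The lowest of each complex were isoforms or accessory proteins with the exception of Uqcrc2, a core protein of complex III, at 92.5. Cox8b, the heart form of Cox8, had a median of 0, Atp5s 3.49, Sdhaf2 7.96 and Ndufa4l2, a paralogue of Ndufa4 known from hypoxia, 14.4.

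As shares of the summed member level of a library, complexes V and IV took medians of 31.2% and 30.2%, complex I 25.4%, complex III 10.6% and complex II 1.81%. TT2 differed most, with 26.1% in complex III, against 7.83% to 12.2% in the other 11 libraries. There Uqcr10 was listed at 6608, Uqcrq at 2934 and Uqcr11 at 1928. The TT2 table is the only one given by transcript, whose rows were summed by gene, and it is in no comparison here.

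Some members' levels differed between table formats. The het and KO tables of both replicates and KO plus mutant replicate 2 use Ensembl-type gene lists, and the others use RefSeq-type lists. Cox7b was listed at 4036 to 9283 in the 5 Ensembl-type tables and at 300 to 523 in the 6 RefSeq-type tables other than TT2. Sdha, the flavoprotein of complex II, was 274 to 365 against 76.4 to 83.8, and Ndufb4, a membrane-arm subunit, 43.0 to 139 against 253 to 466. In all, 10 members had ranges that did not overlap between the formats: Atp5b, Atp5j2, Atp5sl, Cox7a2l, Cox7b, Ndufab1, Ndufb4, Ndufv1, Sdha and Sdhc. These are 10 of the 78 members that were listed in all 11 tables and reached 5 (12.8%), where 16.8% of the 9314 genes that did so had ranges without overlap. Ratios are therefore read first within a format. Between formats, annotation and group cannot be told apart.

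The comparison of KO with het libraries, as labelled, asks which members differ when SALL4 is lost. Cox7a1, the heart and skeletal muscle form of a small complex IV subunit, was lowest in the KO libraries relative to het. In bulk RNA, fewer cells that express a gene and less RNA per cell cannot be told apart. Cox7a1 was listed at 55.6 FPKM in het 1 and 20.6 in KO 1, and at 106 RPKM in het 2 and 38.8 in KO 2. KO lay below het within each replicate. Replicates 1 and 2 differ in unit and strain label, so values are set against each other within a replicate. The fitted log2 change was -1.45 ± 0.45 (SE, 2 libraries a group), with replicate changes of -1.35 and -1.55. By limma with Benjamini-Hochberg adjustment the p was 0.539, so the difference did not pass 0.05.

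Of the 3 other members that had an unadjusted p under 0.05, 2 belong to complex III and 1 to complex I. Uqcr10, a small accessory subunit, was 798 and 1097 in het and 360 and 535 in KO. Its log2 change was -1.13 ± 0.35 and its limma adjusted p 0.539. Uqcrq, a small ubiquinone-binding subunit, was 797 and 1125 in het and 481 and 486 in KO, a log2 change of -1.01 ± 0.33 with a limma adjusted p of 0.553. Both were lower in KO within each replicate. Ndufab1, the mitochondrial acyl carrier protein that also serves complex I, was 281 and 1136 in het and 184 and 424 in KO. KO was lower within each replicate, with replicate changes of -0.57 and -1.54, and the log2 change was -1.05 ± 0.39 (limma adjusted p 0.599). It was -0.54 without KO 2 and -1.58 without KO 1.

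In complex V, Atp5g1 had the lowest fitted change. It is one of a family of genes that all code for the same mature subunit c of the rotor ring. Atp5g1 was 299 and 583 in het and 145 and 245 in KO, with a log2 change of -1.18 ± 0.51 (limma adjusted p 0.647). That change was -0.65 without het 2 and -1.71 without het 1. The other family members had smaller differences. Atp5g2 was 316 and 873 in het and 261 and 680 in KO, and Atp5g3 was 596 and 919 against 568 and 688.

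Few members stood higher in both KO replicates. Cox6b2, the testis form of Cox6b, was 47.3 and 67.9 in het and 61.5 and 127 in KO. Its log2 change was 0.59 ± 0.39 (limma adjusted p 0.764), with replicate changes of 0.41 and 0.77. The change was 0.17 without KO 2 and 1.01 without KO 1. Cox6b1, its widely expressed partner, was 274 and 689 against 313 and 651. The other 2 were Atp5sl, with a log2 change of 0.19, and Cox7a2l, a relative of Cox7a2 known from supercomplexes, with 0.07. Cox7a2l turned to -0.27 without het 1 and to -0.33 without KO 2, and Atp5sl to -0.01 without het 2.

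**Figure D1:**
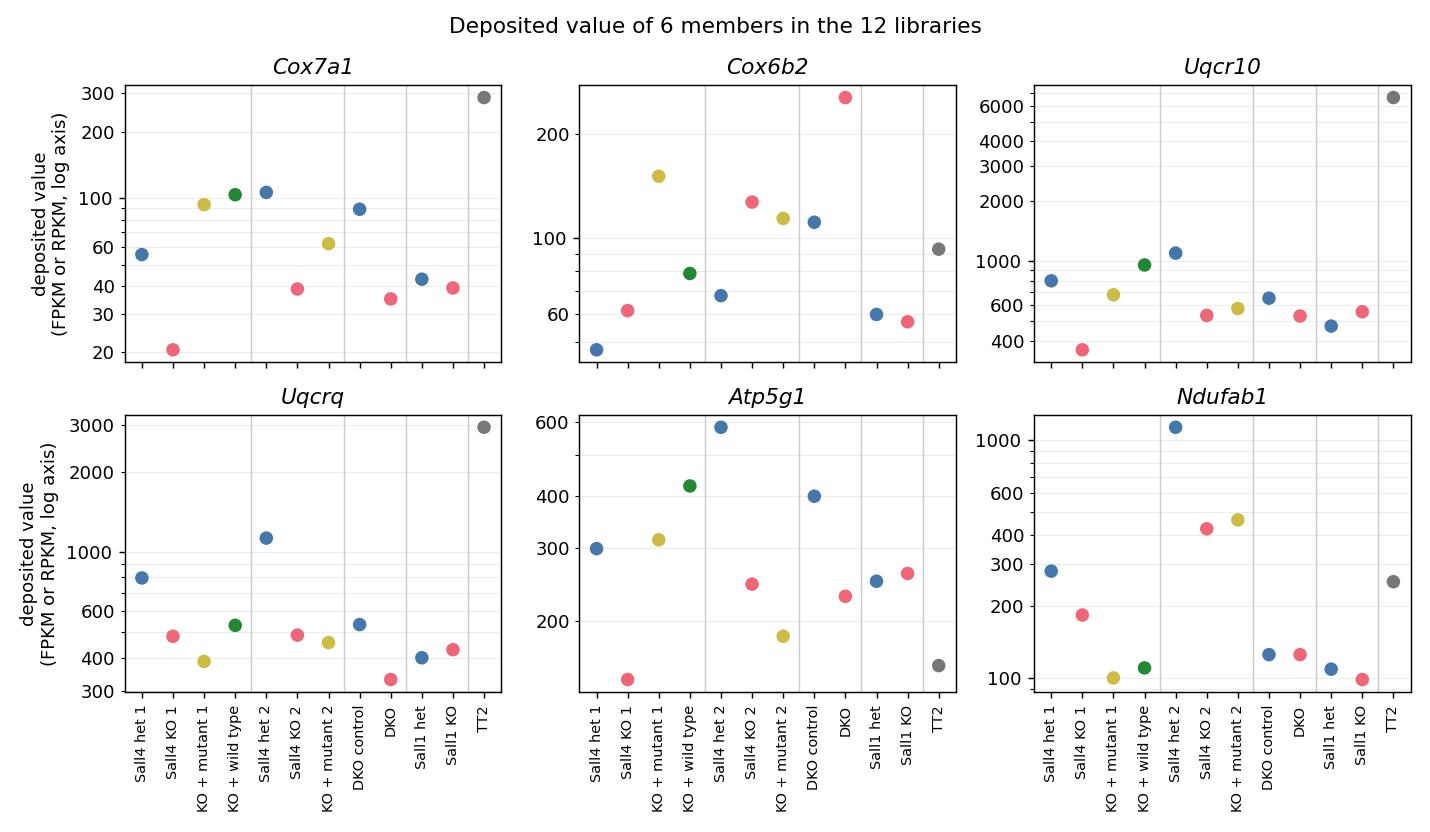
Deposited values (vertical log axes, FPKM or RPKM) of Cox7a1, Cox6b2, Uqcr10, Uqcrq, Atp5g1 and Ndufab1 in the 12 libraries, named by their labels; each point is 1 library, blue for control or het, red for KO, yellow for KO plus mutant, green for KO plus wild type, grey for TT2. Cox7a1 is lower in the red than in the blue point of each Sall4 and DKO pair, from 55.6 to 20.6 in replicate 1.

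As a group, the members lay lower in the libraries labelled KO, mostly in replicate 2. No gene of the 15061 fitted was called at an adjusted p under 0.05 by limma (0.0%), and 0 of the 81 members fitted were. At an unadjusted p under 0.05, 682 genes were lower (4.53%) and 559 higher (3.71%), against 4 members lower and 0 higher. The members' median log2 change was -0.20, with -0.04 in replicate 1 and -0.36 in replicate 2, beside -0.02 over all genes. In both replicates 43 of 81 members were lower (30.1% of all genes) and 3 were higher (28.5% of all genes). Under quantile normalization the split was 28 lower and 18 higher of 80 (28.4% and 33.4% of all genes), with a median of -0.02. With values as deposited it was 47 lower and 6 higher of 81 (28.4% and 30.5%), with a median of -0.16. Without het 1 the median was -0.49 and without het 2 it was 0.10, on the other side of 0. Without KO plus mutant replicate 2 the median was -0.19.

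Among the complexes, complex III had the lowest median log2 change, -0.30, with 4 of 8 members lower in both replicates and 0 higher. That order rests on Uqcr10 and Uqcrq, which lie on chromosome 11, described next. The other 6 complex III members had a median of -0.16, with 2 lower in both. Complex I followed at -0.22 (19 of 36 lower in both, 0 higher) and complex V at -0.21 (11 of 17 lower, 1 higher). Complex IV had -0.13 (7 of 14 lower, 2 higher) and complex II -0.11 (2 of 6 lower, 0 higher). Over all genes, 30.1% were lower and 28.5% higher in both replicates. Of the core proteins of complex III, Uqcrc1 was 264 and 193 in het against 192 and 167 in KO, and Uqcrc2 was 77.3 and 126 against 84.9 and 107. In complex I, the NADH-binding subunit Ndufv1 was 204 and 140 in het and 162 and 149 in KO. Ndufs8, an iron-sulphur subunit, was 59.0 and 61.3 in het and 43.2 and 40.7 in KO.

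**Figure D2:**
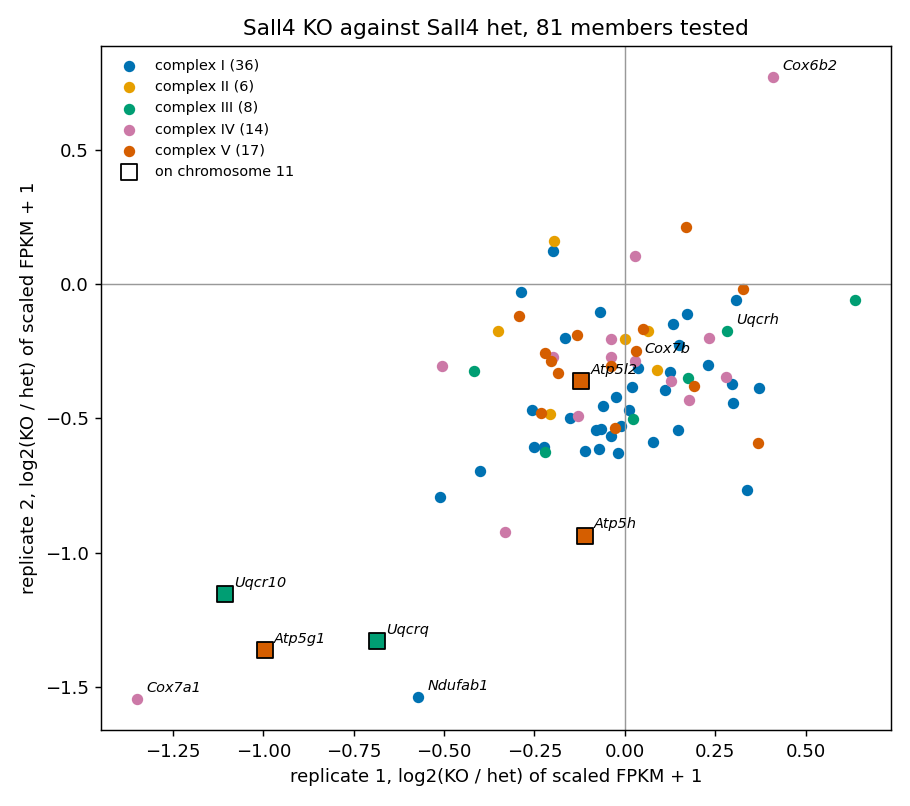
Log2 change from het to KO (Sall4, by label) for the 81 members fitted, replicate 1 on the horizontal axis and replicate 2 on the vertical axis, coloured by complex; squares with a black edge lie on chromosome 11. Cox7a1, Uqcr10, Atp5g1, Uqcrq and Ndufab1 stand at the lower left, and most other members lie below 0 in replicate 2 but around 0 in replicate 1, with medians of -0.36 and -0.04.

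3 of the 5 members named as lowest lie on chromosome 11: Uqcr10, Uqcrq and Atp5g1. The whole of this chromosome was lower in the libraries labelled KO. Over 1013 genes of chromosome 11 the median log2 ratio of KO to het was -0.39 in replicate 1, and over 957 genes -0.45 in replicate 2. The 19 other chromosomes had medians of -0.03 to 0.10 and of -0.09 to 0.05. In 9 windows of 15 Mb along chromosome 11 the medians ran from -0.45 to -0.27 in replicate 1 and from -0.51 to -0.36 in replicate 2. The part of this chromosome-wide difference in the members' values was not tested. In the paired ratios, Uqcr10 was at -1.13 and -1.09, Atp5g1 at -1.02 and -1.30, and Uqcrq at -0.71 and -1.27, all below the chromosome's median in both replicates. Atp5h, a stalk subunit of complex V, was at -0.14 and -0.88, and Atp5l2, a copy of subunit g that newer RefSeq lists call a pseudogene, at -0.15 and -0.30. Without these 5, the members' fitted median was -0.18 over 76, with 38 lower in both replicates and 3 higher (30.1% and 28.5% of all genes). Cox7a1 and Ndufab1 lie on chromosome 7, which was not shifted as a whole.

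**Figure D3:**
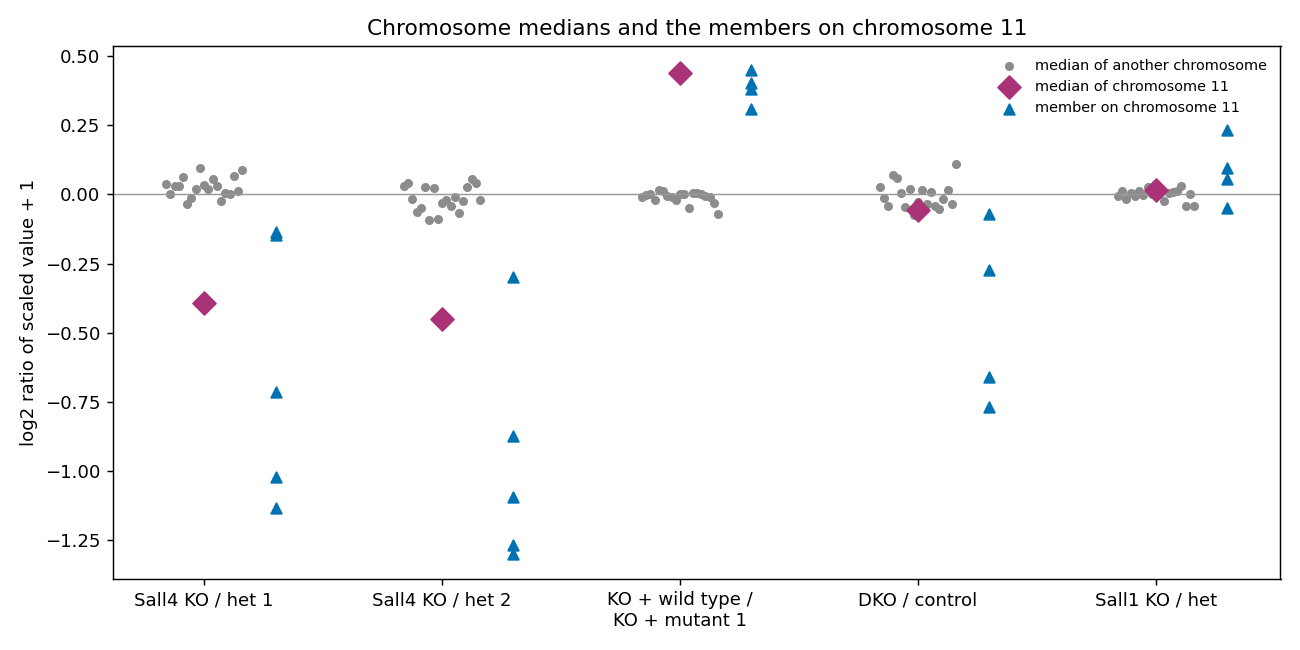
Median log2 ratio of each chromosome with at least 100 genes (grey points; chromosome 11 as a diamond) and log2 ratio of each member on chromosome 11 (triangles) in 5 pairs of libraries named by their labels. Chromosome 11 stands at -0.39 and -0.45 in the Sall4 KO to het pairs and at 0.44 in the pair of KO plus wild type to KO plus mutant, and within the other chromosomes in the DKO and Sall1 pairs.

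Isoform ratios do not depend on the scaling of a library, because both forms are read from the same table, but they can differ between table formats. Atp5g2 made up 26.1% and 26.8% of its family in het 1 and KO 1. In KO plus mutant replicate 1 and KO plus wild type it made up 48.8% and 44.1%. Where shares of these last 2 libraries stand beside het 1 and KO 1 below, annotation and group cannot be told apart. Cox7a1 made up 22.7% and 19.6% of Cox7a1 plus Cox7a2 in the het libraries of Sall4 and 9.00% and 9.98% in the KO libraries, as labelled. The DKO pair, which shares no library with these, had 21.8% in the control and 9.62% in the library labelled DKO. KO plus mutant had 21.0% and 13.6%, and KO plus wild type 17.8%. In the Sall1 pair the share was 11.4% in het and 10.6% in KO, near that of the libraries labelled Sall4 KO, and TT2 had 26.6%. The lowest control of the Sall4 and DKO pairs, at 19.6%, was thus above the highest library labelled KO or DKO, at 9.98%. The 4 muscle markers did not reach 5 in any of these libraries. Their sum was 3.44 and 1.67 in het 1 and KO 1, 2.52 and 0.684 in het 2 and KO 2, and 4.11 in TT2, so it was lower where Cox7a1 was lower in the Sall4 pairs. In the DKO pair it was higher in the library with less Cox7a1, at 0.522 in the control and 2.29 in DKO. These sums are low, and their genes did not move alike. Actc1 was 0.236 in het 1 and 0.521 in KO 1, and 0.0271 in the DKO control and 1.74 in DKO. Myh6 was 2.03 and 0.528, and 0.309 and 0.275, in the same libraries. The part of muscle cells in the Cox7a1 values was not tested.

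Atp5g1 made up 24.7% and 24.5% of the subunit c family in het and 14.9% and 15.2% in KO. It had 19.3% in the DKO control and 12.4% in DKO, 18.1% and 15.0% in KO plus mutant, 19.7% in KO plus wild type, and 12.6% and 13.4% in the Sall1 het and KO libraries. Atp5g1 lies on chromosome 11, which was lower as a whole in the KO libraries, and Atp5g2 and Atp5g3 do not. In the DKO pair chromosome 11 had a median log2 ratio of -0.05, and Atp5g1 was lower by 0.77 on the log2 scale.

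Cox6b2 made up 14.7% and 8.98% of the Cox6b pair in het, 16.4% and 16.3% in KO, 15.9% in the DKO control and 27.7% in DKO. KO plus mutant had 18.4% and 14.5%, KO plus wild type 10.3%, the Sall1 het and KO libraries 10.5% and 9.86%, and TT2 15.7%. In replicate 1 het and KO were thus close, at 14.7% and 16.4%, and in replicate 2 and the DKO pair they were further apart. The remaining isoforms of restricted tissues were low. Cox6a2, Cox8b, Cox8c and Cox7b2, known from muscle, heart and testis, and Cox4i2, known from lung, were at most 5.19 in any library. Ndufa4l2 made up 1.08% to 4.26% of the sum with Ndufa4.

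**Figure D4:**
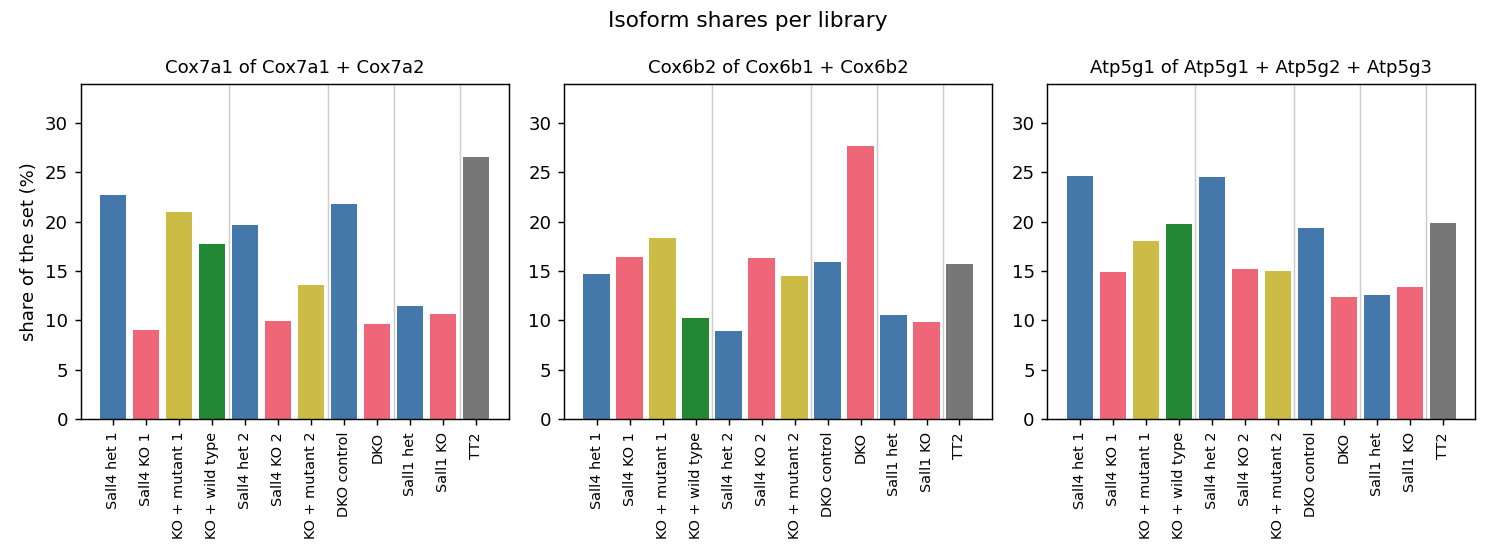
Share in percent of Cox7a1, Cox6b2 and Atp5g1 in the summed level of their isoform sets in the 12 libraries, named by their labels; each bar is 1 library, coloured as control or het (blue), KO (red), KO plus mutant (yellow), KO plus wild type (green) and TT2 (grey). Cox7a1 stands at 9.00% to 9.98% in the libraries labelled Sall4 KO and DKO and at 19.6% to 22.7% in their controls.

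The library labelled DKO was compared with its wild-type control as a single pair, scaled by the median ratio over genes, so differences have no replicate check. 82 members reached 5 in at least 1 of the 2 libraries. Their median log2 ratio was -0.003, between a lowest of -1.30 and a highest of 1.22, and the median of all 8621 genes was -0.01. 4 members were at least 1.5-fold lower (9.34% of all genes) and 1 was at least 1.5-fold higher (11.2% of all genes). Cox7a1 was again the lowest, with 89.2 FPKM in the control and 35.0 in DKO, a log2 ratio of -1.30. Atp5g1 went from 398 to 230 (-0.77), Cox5a, a widely expressed subunit of complex IV, from 963 to 581 (-0.70) and Uqcrq from 532 to 331 (-0.66). Cox6b2 was the highest, with 111 in the control and 255 in DKO, a log2 ratio of 1.22.

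Cox7a1, Atp5g1 and Uqcrq were also named as lower in KO than in het, and Cox6b2 headed the members higher there. Atp5g1 and Uqcrq lie on chromosome 11, which was lower as a whole in the Sall4 KO libraries. The named members were picked as the largest changes of each comparison, and the overlap over all genes was not counted. Cox5a was not named between KO and het, where it was 651 and 680 in het and 616 and 612 in KO. Uqcr10 had a log2 ratio of -0.27 in the DKO pair and Ndufab1 was listed at 125 in both libraries. Next highest after Cox6b2 were the complex V factor Atp5s (4.99 to 7.65, 0.55), Uqcrh, the hinge protein of complex III (278 to 373, 0.44), and Ndufb3 of complex I (115 to 150, 0.41). By complex, medians were 0.07 for I, 0.06 for IV, -0.10 for III, -0.11 for V and -0.21 for II. No complex I member passed 1.5-fold. Fibroblast markers were high in both libraries of this pair, at sums of 212 and 223, and their part in the values was not tested.

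The library labelled Sall1 KO was compared with Sall1 het in the same way. Of the 5 single pairs, the members differed least in this one, from -0.27 to 0.23 on the log2 scale, and so did all genes, with an interquartile range of 0.16. The members' median log2 ratio was 0.01 over 81, and 0 passed 1.5-fold in either direction, beside 1.08% of all genes higher and 1.28% lower. Uqcr10 was highest, with 473 FPKM in het and 558 in KO (0.23), then Uqcrc1 (153 to 180, 0.23), Ndufv1 (62.7 to 72.4, 0.20) and Ndufs5 (56.8 to 64.8, 0.18). Lowest were Ndufc1 (302 to 251, -0.27), Atp5j, coupling factor F6 (468 to 403, -0.22), Atp5f1, the peripheral stalk subunit b (300 to 261, -0.20), and Ndufb6 (243 to 213, -0.20). Cox7a1 stood at 43.0 in het and 39.2 in KO. Without replicates no difference of this size can be set against the spread between libraries.

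**Figure D5:**
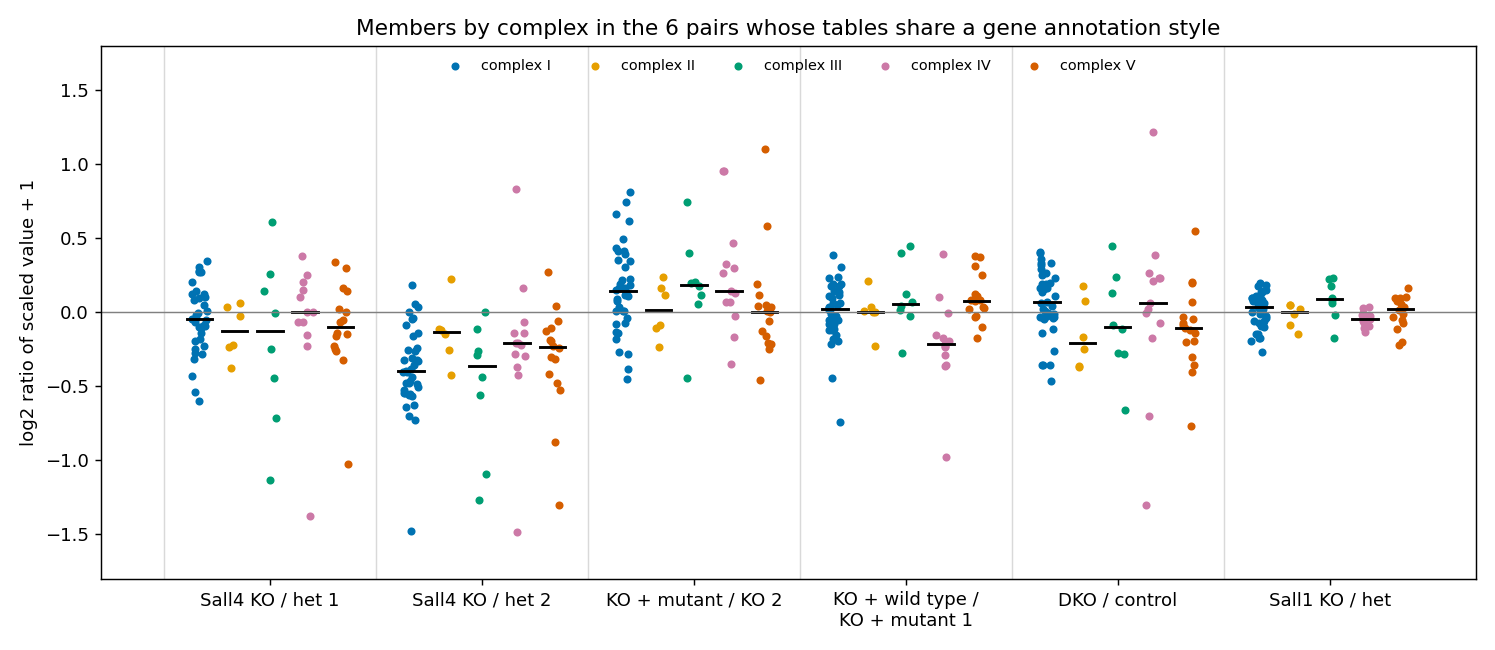
Log2 ratios of the members by complex in 6 pairs of libraries whose tables share a gene list format; each point is 1 member and each black line the median of a complex. The Sall1 pair is the narrowest, from -0.27 to 0.23, the Sall4 KO to het pair of replicate 2 lies mostly below 0, and Cox7a1 and Cox6b2 are the lowest and highest points of the DKO pair at -1.30 and 1.22.

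Sall4 KO cells with mutant Sall4A were compared with KO cells without it. Members were mostly higher in the libraries with the mutant. Ndufa11, a complex I membrane subunit, was 26.2 and 35.7 in KO and 44.9 and 52.1 in KO plus mutant. Its log2 change was 0.95 ± 0.24 (limma adjusted p 0.425). Cox7a1 was 20.6 and 38.8 in KO and 93.6 and 62.3 in KO plus mutant, with a log2 change of 1.71 ± 0.44 (limma adjusted p 0.425). Uqcrh was 199 and 379 in KO and 425 and 519 with the mutant (1.08 ± 0.37), and Ndufa1, a small complex I subunit, 218 and 297 in KO and 366 and 386 with the mutant (0.87 ± 0.36). Atp5k, subunit e of complex V, had 1.32 ± 0.65 from 480 and 870 to 1584 and 1068.

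No gene of 11632 and 0 of 80 members passed an adjusted p of 0.05 in limma (0.0% of genes), with 599 genes higher and 537 lower at an unadjusted p under 0.05, and 5 members higher and 0 lower. The members' median log2 change was 0.45, with 0.72 in replicate 1 and 0.20 in replicate 2, beside -0.02 for all genes. Scaled as pairs of their own, replicates 1 and 2 gave the members medians of 0.73 and 0.11. 55 members were higher in both replicates (29.8% of all genes) and 4 lower (31.2% of all genes): Atp5sl, Atp5d, Ndufv1 and Sdha. Medians by complex were 0.79 for IV, 0.42 for I, 0.34 for III, 0.32 for V and 0.16 for II. Replicate 1 crosses table formats, with an interquartile range of log2 ratios over all genes of 0.95, against 0.69 in replicate 2, so annotation and group cannot be told apart in it. Without KO plus mutant replicate 1 the members' median was 0.03. Without KO plus mutant replicate 2, which leaves the mutant library of the other format, it was 0.84. In that setting the named members Cox7a1, Atp5k, Uqcrh and Sdha had log2 changes of 2.46, 2.23, 1.48 and -1.75. Without KO plus mutant replicate 1 the same members had 0.89, 0.34, 0.62 and -0.03. With values as deposited, all genes shifted by -0.28 and the members split into 19 higher and 18 lower in both replicates, and under quantile normalization into 41 and 7.

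The KO and mutant tables of replicate 2 have 19049 and 20223 entries. Both list RPKM on Ensembl-type genes, so replicate 2 stays within 1 format. There Cox7a1 was 38.8 RPKM in KO and 62.3 in KO plus mutant, and het 2 was at 106. Uqcr10 was 535 in KO and 579 with the mutant, Uqcrq 486 and 455, and Atp5g1 245 and 184, as deposited. Their scaled log2 ratios of KO plus mutant to KO were 0.40, 0.20 and -0.12. These 3 members of chromosome 11 stayed below their het values of 1097, 1125 and 583. Their scaled log2 ratios to het were -0.76, -1.15 and -1.50. Atp5l2, on the same chromosome, was 107 in KO and 189 with the mutant, above the 127 in het 2. Chromosome 11 as a whole had a median log2 ratio of -0.01 between KO plus mutant and KO in replicate 2 and of -0.47 between KO plus mutant and het.

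Against het, KO plus mutant shares its control libraries with the first comparison and its treated libraries with the second. No gene of 11632 and 0 of 80 members were called by limma (0.0%), with 566 genes higher and 660 lower at an unadjusted p under 0.05, and 3 members higher and 1 lower. 20 members were higher in both replicates (26.6% of all genes) and 8 lower (26.9% of all genes). The median log2 change of the members was 0.25, with 0.58 in replicate 1 and -0.19 in replicate 2, so the replicates lay on opposite sides of 0. It was -0.11 without het 1, 0.53 without het 2, -0.22 without KO plus mutant replicate 1 and 0.55 without KO plus mutant replicate 2. In the last of these settings Cox6b2 had a log2 change of 2.05 and Uqcrh 1.53. Without KO plus mutant replicate 1 these 2 had 0.80 and 0.67. With values as deposited all genes shifted by -0.24 and the members' median was -0.01. Members then split into 7 higher and 23 lower in both replicates (13.1% and 45.0% of all genes). Under quantile normalization they split into 25 higher and 7 lower (29.4% and 24.0%).

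Members named here had the largest changes by the smaller of their 2 replicate changes. Uqcrb had the highest fitted change, 1.96, but with replicate changes of 4.34 and -0.42. Cox6b2 was first among the members higher in both replicates, at 47.3 and 67.9 in het and 151 and 114 with the mutant. Its log2 change was 1.46 ± 0.38 (limma adjusted p 0.460). Uqcrh followed with 168 and 393 against 425 and 519 (1.14 ± 0.37), then Ndufa11 (0.69 ± 0.24), Ndufa1 (0.84 ± 0.36) and Ndufa4l2 (0.38 ± 0.22). On the lower side Ndufab1 was 281 and 1136 in het and 99.7 and 462 with the mutant, a log2 change of -1.12 ± 0.41. Uqcrq was 797 and 1125 in het and 387 and 455 with the mutant, with a change of -0.90 ± 0.38. Atp5b (-0.82 ± 0.65), Uqcrc1 (-0.38 ± 0.28) and the delta subunit gene Atp5d (-0.23 ± 0.27) were also lower in both replicates. Ndufab1 and Atp5b are among the members whose levels differed by table format.

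KO plus wild type was set beside KO plus mutant replicate 1, since both tables share a format; it has 1 library and no test. The members differed little between them. Their median log2 ratio was 0.02 over 81 members, beside 0.02 over all 8086 genes, with 0 members at least 1.5-fold higher (5.43% of all genes) and 2 at least 1.5-fold lower (3.28% of all genes). The median turned to -0.08 under quantile normalization. Cox6b2 was 151 with the mutant and 78.8 with wild type, a log2 ratio of -0.98, and Ndufa4l2 was 19.6 and 11.7 (-0.74). Cox7a1 was 93.6 and 104. Complex IV had the lowest median, -0.21, with Cox7c (1582 and 1273) at -0.36, while Cox7a2 was at 0.40.

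The 4 members on chromosome 11 listed in both tables were all higher with wild type: Uqcr10 by 0.45, Uqcrq by 0.40, Atp5g1 by 0.38 and Atp5h by 0.31 on the log2 scale. This is close to the median of chromosome 11 itself, 0.44 over 758 genes, where the 19 other chromosomes had medians of -0.07 to 0.02 and the 9 windows ran from 0.38 to 0.55. Whether the chromosome-wide difference accounts for the 4 values was not tested.

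Against Sall4 KO 1 and Sall4 het 1, KO plus wild type crosses table formats, and the spread over all genes was wider, with interquartile ranges of 1.01 and 0.93. The members' median log2 ratios were 0.68 and 0.69. Against KO 1, 46 of 77 members were at least 1.5-fold higher (18.4% of all genes) and 5 at least 1.5-fold lower (24.9%). Against het 1 there were 45 higher (16.1%) and 8 lower (23.9%) of 77. Uqcrb and Ndufb4 were the highest in both, with log2 ratios of 3.47 and 3.00 against KO 1, and Cox7b, Sdha, Atp5b and Ndufv1 the lowest, from -2.90 to -0.79. 5 of these 6 are among the members set apart by table format, and Uqcrb was listed at 51.7 and 78.7 in het 1 and KO 1 but at 614 and 641 in het 2 and KO 2. In these 2 pairs annotation and group cannot be told apart. Cox7a1, at 104 with wild type against 20.6 in KO 1 and 55.6 in het 1, was among the 4 highest against KO 1, with a log2 ratio of 2.51.

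The rest of the pathway was read from lists of genes by role. In the comparison of KO with het, 0 genes of any list were called by limma. Mitochondrial ribosome genes, which translate the subunits coded in mitochondrial DNA, had a median log2 change of -0.39, with 47 of 70 lower in both replicates and 1 higher. Assembly factors of the complexes had -0.33 (16 of 22 lower, 4 higher), enzymes of the citrate cycle -0.32 (9 of 13 lower, 1 higher) and the other electron carriers -0.31 (2 of 5 lower, 0 higher). Biogenesis regulators such as Nrf1 and Tfam had -0.11 (1 of 7 lower, 1 higher). Glycolysis had -0.19 (6 of 18 lower, 1 higher) and the cytosolic ribosome -0.15 (30 of 84 lower, 1 higher). Beside these counts, 30.1% of all genes were lower and 28.5% higher in both replicates. Only 1 of the 14 symbols found by name for mitochondrially encoded subunits could be fitted, so the RNA of these subunits was not compared. With the mutant against KO, the cytosolic ribosome had a median of 0.81 (49 of 82 higher in both, 1 lower) beside the members' 0.45. Over all genes 29.8% were higher and 31.2% lower in both. In replicate 2 alone both lists had 0.20 under the scaling of the fit.

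In the DKO pair the glycolysis list and the cytosolic ribosome had median log2 ratios of 0.35 and 0.34, where the members had -0.003. Citrate cycle genes had -0.17, mitochondrial ribosome genes -0.09 and assembly factors -0.05. In the Sall1 pair the median of each list measured lay between -0.07 and 0.11. In the pair of KO plus wild type to KO plus mutant replicate 1 they lay between -0.08 and 0.12.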

How the data were processed

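RNA of mouse ES cells was read from 12 deposited tables, 9 of FPKM and 3 of RPKM per the file headers, with 1 row per gene entry or, for TT2, per transcript. The sources used here do not say how the authors counted reads for the FPKM and RPKM values. Tools and build named in the submitters' processing notes are TopHat, Bowtie 0.12.7, SAMtools, MACS 1.4.2 and mm9. Depth is unknown, so no interval from counts is given. In KO plus mutant replicate 2, 18 symbols that differed from those of het 2 for the same gene identifier were reset, 0 of them members. Rows were summed per symbol, and 1225 entries without a symbol in the het and KO tables of replicate 1 were dropped.

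The Sall4 het, KO and KO plus mutant libraries were fitted together with limma 3.58.1 in R 4.3.3 (lmFit and eBayes with trend) on log2(scaled value + 1), with terms for group and replicate number. Libraries were scaled by their median ratio (genes reaching 1 in all), and a gene entered if it reached 1 in 2 or more of the 6 libraries. A gene that 1 mutant table does not list was fitted without that library. This pseudocount of 1 understates fold changes of low genes. P-values were adjusted by Benjamini-Hochberg over all genes fitted, in 3 comparisons. 5 single pairs were scaled alike, kept genes that reached 5 in either library, and were read by a 1.5-fold count with no test. The fit was also run on simulated independent genes with a common spread and no difference of table format. That run cannot show how the fit behaves across the formats of these libraries.

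Named members were the isoform sets, up to 5 members per direction and fit that moved alike in both replicates, the 4 largest ratios per direction and pair, and the 2 highest and the lowest of each complex; Ndufs8, Ndufv1, Uqcrc1 and Uqcrc2 between KO and het, and Cox5a, Uqcr11, Atp5h and Atp5l2, were named after their values were seen. The members and lists were chosen with earlier results of these data known. Promoters come from RefSeq, build GRCm38.p6; members with no entry there included Atp5a1, Atp5f1, Atp5l2, Atp5s, Atp5sl, Cox4i1, Cox4i2, Cox6a2, Cox6c, Cox8c, Ndufa2, Ndufa4l2, Ndufb9, Ndufs1, Sdhc, Uqcrb, Uqcrc2 and Uqcrq. Alternatives were other scalings, pseudocounts and filters, the highest row per symbol, no replicate term, eBayes without trend and each library left out; a fit of the het and KO libraries alone and medians without chromosome 11 were added after seeing the data.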

Additional observations from a re-analysis of the deposited data

How the results depend on the processing

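Members called by limma stayed at 0 in the comparison of KO with het under every setting run; 1 gene was called under quantile normalization, and 0 to 23 genes when single libraries were left out. The members' median log2 change there was -0.49 to 0.10 with single libraries left out, -0.20 over the het and KO libraries alone and -0.18 without chromosome 11. For KO plus mutant against KO, leaving out single libraries gave 0 to 787 genes, 0 to 20 members and medians of 0.031 to 0.84. For KO plus mutant against het it gave 0 to 677 genes and 0 to 14 members, and 1 gene was called with a pseudocount of 0.1. Setting the replicate numbers aside (no replicate block) called 0 genes in all 3 comparisons and left the medians at -0.20, 0.45 and 0.25; libraries with the same number deviated from their group means with correlations of 0.58 (het and KO), 0.10 (het and mutant) and 0.07 (KO and mutant), and a shared number also means a shared strain label. Reversed changes between KO and het were those of Cox7a2l without het 1 (-0.27) and without KO 2 (-0.33), in a range of -0.33 to 0.46, and of Atp5sl without het 2 (-0.0089, in a range up to 0.39). The median ratio of KO plus wild type to KO 1 was 0.44 as deposited, and that to het 1 was 0.43 as deposited and 0.43 under quantile normalization. The cause of these shifts was not tested. A fit without 1 library takes the lone sample of its group to vary like the others. The number of libraries and their table formats limit the precision, and depth is unknown.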
